A study of Mus musculus with 12 samples.

Results

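The miR-344 family is a group of rodent microRNAs whose genes lie close together on mouse chromosome 7. All rows of the deposited miRNA table whose name begins with mmu-mir-344 were taken as members, which gave 4 precursors (mmu-mir-344b, mmu-mir-344d-3, mmu-mir-344h-1 and mmu-mir-344h-2) of 589 in the table. The family was chosen because mmu-mir-344d-3 had higher values in the libraries of TLR4-KO mice given ethanol, so differences that involve those libraries are given as a description without a test. Of the 4 members, 2 were above 0 in at least 1 library, as were 324 of all 589 precursors.

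Small RNA of the cerebral cortex was sequenced in 4 groups of female C57BL/6J mice: WT mice that drank water (WT), WT mice with 10% (v/v) ethanol in the water over 5 months (WT + EtOH), mice lacking the toll-like receptor 4 gene that drank water (TLR4-KO), and mice of that knockout given ethanol in the same way (TLR4-KO + EtOH). TLR4 is an innate immune receptor, and the study asked how chronic ethanol and the loss of TLR4 relate to cortical miRNAs. Each group had 3 libraries, 12 in all, and each library held RNA pooled from several mice, so that an SD over 3 libraries is a spread between pools and not between animals. Since small RNA libraries hold no mRNA, the level of Tlr4 could not be used to check the genotype labels.

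The values are normalized scores without a unit that rise with the abundance of a precursor. They are not counts, the read depth of each library was not used here, and they are reported as differences and not as folds. The paper reports the miRNA reads of each group, with the fewest for TLR4-KO + EtOH, and their part in the scores was not tested. Every library had the same highest score (135), but the libraries differed at the low end, where the miR-344 values lie. Between 216 and 270 precursors were above 0 in a library, and the lowest score above 0 ranged from 1.25 to 14.1. Replicate 1 had the most precursors above 0 in each group, with 270, 270, 262 and 262. In WT all 3 libraries had 260 or more, whereas replicates 2 and 3 of WT + EtOH had 233 and 229 and those of TLR4-KO had 229 and 216. The part that this coverage plays in the miR-344 values was not tested beyond the settings given beside the comparisons and in the closing section. The tissue label was checked on neuron-enriched miRNAs (miR-9, miR-124, miR-128, miR-129, miR-137, miR-138, miR-153 and miR-218), of which 17 of 17 precursors were above 0, with a mean score of 56.2 to 59.2 per library. No other brain region was sequenced, so this check cannot tell cortex from the rest of the brain.

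A miRNA gene is transcribed as a long primary RNA, from which Drosha cuts a hairpin, the precursor. Dicer then cuts the hairpin into a 5p and a 3p strand of which 1 or both enter an Argonaute protein. The seed near the 5′ end of the loaded strand pairs with target mRNAs, which are then repressed, so that miRNAs with the same seed can share targets. Members of the miR-344 family are known from rodent brain.

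The mature strands of the 4 members are shown because they decide which reads could be told apart. They were taken from RefSeq (GRCm38.p6, 5′ to 3′), and capitals mark the seed, bases 2 to 8. All 4 members matched a RefSeq gene.

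mmu-miR-344d-3p: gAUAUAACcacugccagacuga
mmu-miR-344d-3-5p: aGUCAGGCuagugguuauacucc
mmu-miR-344b-3p: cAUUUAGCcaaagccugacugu
mmu-miR-344b-5p: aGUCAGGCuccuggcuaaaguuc
mmu-miR-344h-3p: gGUAUAACcaaagcccgacugu
mmu-miR-344h-5p: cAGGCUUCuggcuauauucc

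The 5p strands of mmu-mir-344b and mmu-mir-344d-3 share the seed GUCAGGC, which is found in 6 mature miRNAs of 7 miR-344 genes. Their 3p strands have different seeds. The seed AUUUAGC of miR-344b-3p is found in no other member of the family, whereas AUAUAAC of miR-344d-3p is shared with miR-344e-3p. The same mature miR-344d-3p is made by 3 genes, Mir344d-1, Mir344d-2 and Mir344d-3, so that reads of this strand cannot be assigned to Mir344d-3 by their sequence. The 5p strands of these 3 genes differ from each other:

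mmu-miR-344d-1-5p: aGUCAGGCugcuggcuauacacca
mmu-miR-344d-2-5p: aGUCUGGUugcuggcuauauucca

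The table gives 1 score per precursor, and the 5p and 3p strands were not told apart. Scores of mmu-mir-344d-3 are therefore uncertain with respect to its gene copies. Outside the family, miR-410-3p of chromosome 12 carries the same AUAUAAC seed:

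mmu-miR-410-3p: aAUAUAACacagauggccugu

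Beyond the seed the pair diverges. Over the whole strands, seed included, 14 of 22 aligned positions are identical. The row of mmu-mir-410 was listed at 0 in all 12 libraries. miR-344b-3p has a run of 18 bases in common with miR-344-3p, but its 5′ end and its seed are different:

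mmu-miR-344-3p: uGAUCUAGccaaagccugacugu

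The hairpins of the 2 members with scores above 0 are shown so that the length and place of both strands can be read. Capitals mark here the mature strands, the 5p strand first.

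Mir344d-3: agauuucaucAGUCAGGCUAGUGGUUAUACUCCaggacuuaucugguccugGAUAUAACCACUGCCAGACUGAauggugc
Mir344b: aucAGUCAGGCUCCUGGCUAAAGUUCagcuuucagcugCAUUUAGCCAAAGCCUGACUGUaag

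The Mir344d-3 hairpin has 80 bases and that of Mir344b has 63, and 48 of 80 aligned positions (60%) are identical. Mir344h-1 and Mir344h-2 have the same hairpin over all 60 bases and the same mature strands, so that their reads cannot be separated at all.

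Mir344h-1: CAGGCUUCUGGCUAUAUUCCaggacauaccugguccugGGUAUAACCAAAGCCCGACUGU

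In GRCm38 all 13 miR-344 genes listed by RefSeq are on the minus strand of chromosome 7 within 402 kb, from base 61683124 to base 62085310. Mir344d-3 lies at chr7:61726249-61726328, Mir344h-1 at chr7:61739350-61739409, Mir344h-2 at chr7:61742366-61742425 and Mir344b at chr7:61790519-61790581. All 4 are in an intron of the long non-coding RNA A230057D06Rik (chr7:61704519-61928690), which is transcribed from the same strand. The nearest protein-coding gene after the last miR-344 gene is Ndn, which begins 261 kb farther on and encodes necdin, an imprinted protein of neurons. The other 9 miR-344 genes of RefSeq were not analysed here.

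**Figure D1:**
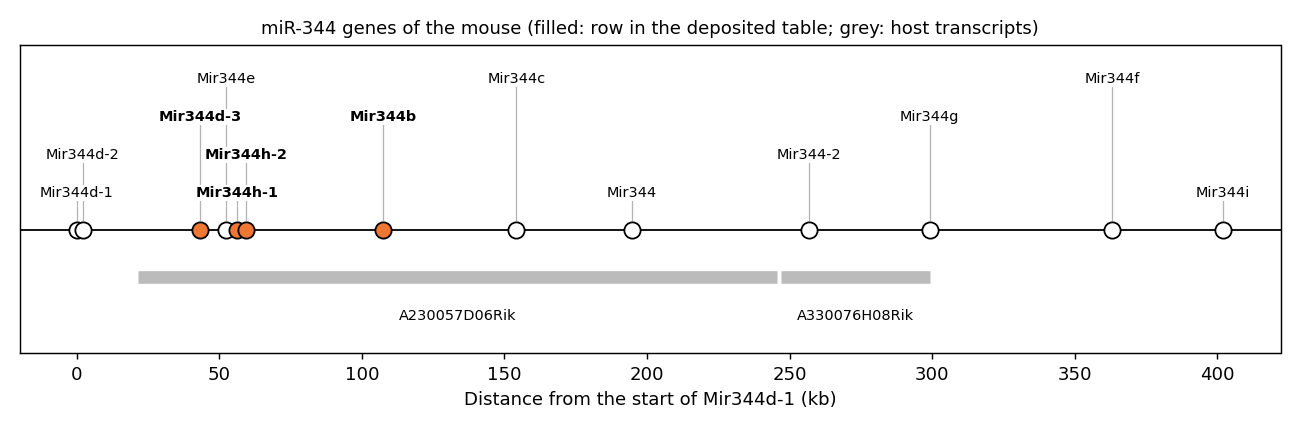
Place of the 13 miR-344 genes of the mouse, as distance in kb from the start of Mir344d-1, with the 4 genes that have a row in the deposited table filled and the other 9 open. Grey bars are the annotated non-coding transcripts that overlap them, and all 4 filled genes fall inside A230057D06Rik.

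mmu-mir-344d-3 was the member with the lower scores in most libraries. In WT its scores were 4.20, 4.23 and 5.23 in replicates 1, 2 and 3. In WT + EtOH they were 2.72, 0 and 0. In TLR4-KO they were 4.20, 0 and 0. In TLR4-KO + EtOH they were 19.4, 18.1 and 10.95. The precursor was thus above 0 in 8 of 12 libraries, and its 3 highest scores were those of the group for which the family was chosen. The lowest of the 3, in replicate 3, was 10.95, and the highest of the other 9 libraries was 5.23. In descending order, the group means were 16.2 ± 4.57 for TLR4-KO + EtOH, 4.56 ± 0.583 for WT, 1.40 ± 2.43 for TLR4-KO and 0.907 ± 1.57 for WT + EtOH (SD, n = 3). The neighbours WT and TLR4-KO met at the same score of 4.20, and the ranges of TLR4-KO and WT + EtOH overlapped.

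mmu-mir-344b had a higher level and a different spread. Its scores in WT were 21.7, 18.0 and 21.7 in replicates 1, 2 and 3. In WT + EtOH they were 35.5, 0 and 17.6. In TLR4-KO they were 35.7, 0 and 20.9. In TLR4-KO + EtOH they were 13.7, 18.1 and 20.8. The 2 highest scores were those of replicate 1 of WT + EtOH and of TLR4-KO, and the 2 scores of 0 were those of replicate 2 of the same groups. In descending order, the group means were 20.5 ± 2.14 for WT, 18.9 ± 17.9 for TLR4-KO, 17.7 ± 17.7 for WT + EtOH and 17.5 ± 3.60 for TLR4-KO + EtOH (SD, n = 3). All 4 groups overlapped, and no neighbours in this order differed beyond their spread. Over all 12 libraries its SD was 10.97, larger than that of 98.8% of the 324 precursors above 0 in any library, whose median SD was 4.96.

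mmu-mir-344h-1 and mmu-mir-344h-2 were listed at 0 in every library. Since the depth of each library was not used, this says only that they were not found in these libraries. By the mean over 12 libraries, mmu-mir-344b (18.6) was number 191 and mmu-mir-344d-3 (5.76) number 245 of the 324 precursors, so that both were in the lower part of the detected miRNAs.

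**Figure D2:**
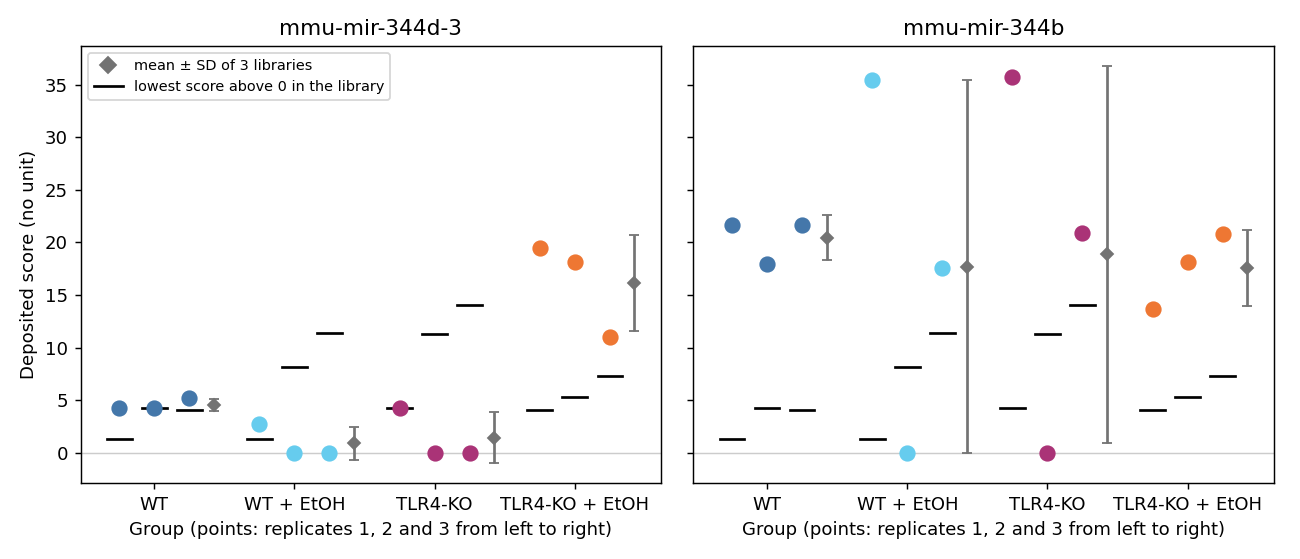
Deposited score of mmu-mir-344d-3 (left) and mmu-mir-344b (right) in each library (points, by group, replicates 1 to 3 from left to right), with the mean and SD of the 3 libraries of a group (grey diamonds and bars) and the lowest score above 0 that any precursor had in that library (black lines). The TLR4-KO + EtOH points of mmu-mir-344d-3 are at 10.95 to 19.4, above all its other points, while the lowest score above 0 of any precursor reached 11.3 in replicate 2 and 14.1 in replicate 3 of TLR4-KO.

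The first comparison asked whether ethanol was associated with a change in WT mice. mmu-mir-344d-3 was lower in WT + EtOH than in WT by a difference of -3.65 in score (SE 2.18, 95% confidence interval -8.64 to 1.34), with an adjusted p of 0.678 in limma. This fit takes 1 spread from all 4 groups, the TLR4-KO + EtOH libraries with their SD of 4.57 included. With only WT and WT + EtOH in the fit, the SE was 0.934 and the interval -6.17 to -1.12, which leaves out 0, with an unadjusted limma p of 0.0153 and an adjusted p of 0.166. In that fit the unadjusted limma p was under 0.05 for 87 of 589 precursors. The 3 WT + EtOH scores were all below the 3 WT scores, and the two-sided exact permutation test gave p = 0.1, the smallest that 3 against 3 libraries allow. Of the 324 precursors above 0 in any library, 56 (17.3%) also had all their WT + EtOH scores below all their WT scores. mmu-mir-344b differed by -2.76 (SE 10.2, interval -26.2 to 20.7; adjusted p = 1 in limma), with an exact permutation p of 0.7. No member passed the adjusted threshold of 0.05, which 10 of 589 precursors (1.7%) did. With all 4 groups in the fit, the unadjusted limma p was under 0.05 for 74 of 589 precursors and for none of the members (0.131 for mmu-mir-344d-3 and 0.794 for mmu-mir-344b).

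The second comparison asked what differed with the loss of TLR4 in mice that drank water. mmu-mir-344d-3 had a difference of -3.15 between TLR4-KO and WT (SE 2.18, interval -8.14 to 1.84; adjusted p = 0.756 in limma), and the exact permutation p was 0.2. With only the libraries of WT and TLR4-KO in the fit, the SE was 1.40 and the interval -6.94 to 0.632, with an adjusted limma p of 0.553. Replicate 1 of TLR4-KO had the same score as replicate 1 of WT, and the other 2 TLR4-KO libraries were at 0. For mmu-mir-344b the difference was -1.58 (SE 10.2, interval -25.1 to 21.9; adjusted p = 1 in limma), with an exact permutation p of 0.8. Among all precursors 15 of 589 (2.55%) passed, and no member did. The unadjusted limma p was 0.184 for mmu-mir-344d-3 and 0.881 for mmu-mir-344b. The intervals are wide for mmu-mir-344b, whose difference could have been as large as its own mean in either direction.

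The mmu-mir-344d-3 differences in these comparisons rest largely on the scores of 0. In replicate 1, the only one above 0 in either group, the score was 2.72 in WT + EtOH, below all WT scores. In replicate 1 of TLR4-KO it was 4.20, equal to the lowest WT score. The lowest score above 0 was 8.17 and 11.3 in the WT + EtOH libraries where it was at 0, and 11.3 and 14.1 in the TLR4-KO libraries where it was at 0, all above its highest WT score of 5.23. A score in the range of WT was therefore below every score above 0 in these 4 libraries. With each 0 set to the lowest score of its library, a setting chosen after the values were seen, the mean was 7.41 ± 4.36 in WT + EtOH and 9.85 ± 5.09 in TLR4-KO (SD, n = 3), and the differences from WT turned to 2.86 and 5.29. Since all the values set in this way lie above its WT scores, the turn follows from the setting. Nothing is read from the new sign. The differences also shrank to -1.97 and -1.69 after quantile normalization of the scores, and to -1.49 and -0.0733 with the number of precursors above 0 as a covariate.

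In TLR4-KO + EtOH against TLR4-KO, the contrast in which the family was selected, mmu-mir-344d-3 was higher by 14.8 in score, and each of the 3 libraries was above each of the 3 TLR4-KO libraries. The same was so for 23 of the 324 precursors (7.1%). Against WT + EtOH, with which the TLR4-KO + EtOH libraries share the ethanol, the difference was 15.3, again without overlap, as for 14 of 324 precursors (4.32%). These counts include mmu-mir-344d-3 itself, and nothing is read from them, since the member was chosen on these libraries. Both comparisons use the same 3 TLR4-KO + EtOH libraries. For mmu-mir-344b the corresponding differences were -1.33 and -0.155, with overlapping groups in both. Their sign rested on single libraries: without replicate 1 of TLR4-KO the first was 7.08, without replicate 1 of WT + EtOH the second was 8.74, and without replicate 1 of TLR4-KO + EtOH they were 0.598 and 1.77.

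The size of these differences also depended on the scores of 0. With each 0 set to the lowest score of its library, the mmu-mir-344d-3 difference was 6.32 against TLR4-KO and 8.76 against WT + EtOH, and the groups overlapped. The lowest score of replicate 3 of TLR4-KO, 14.1, was higher than the 10.95 that mmu-mir-344d-3 had in replicate 3 of TLR4-KO + EtOH.

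The difference with ethanol had opposite signs in the 2 genotypes for mmu-mir-344d-3, -3.65 in WT and 14.8 in TLR4-KO. The latter was the 4th highest of the 324 precursors in that contrast, and nothing is read from this rank, since the member was chosen on these libraries. For mmu-mir-344b the differences were -2.76 and -1.33, and the sign of each turned when 1 library was left out. A pattern in which all WT + EtOH scores were below all WT scores and all TLR4-KO + EtOH scores above all TLR4-KO scores was found for 5 of 324 precursors, mmu-mir-146a, mmu-mir-344d-3, mmu-mir-376a, mmu-mir-384 and mmu-mir-872. These 5 were named after their values were seen, and nothing is read from their number, for the same reason.

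**Figure D3:**
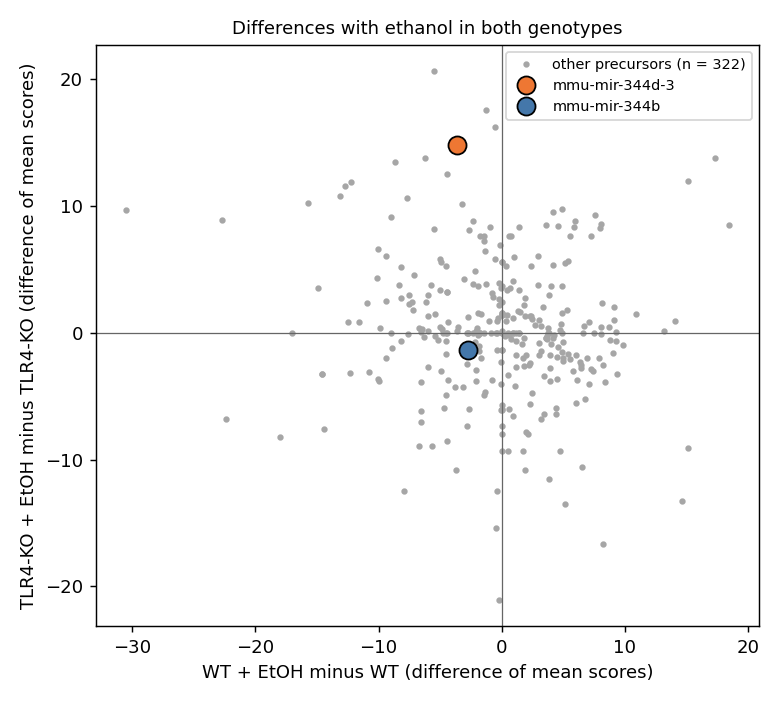
Difference of mean scores between WT + EtOH and WT (horizontal) against that between TLR4-KO + EtOH and TLR4-KO (vertical) for the 324 precursors above 0 in any library, 1 point each, with the 2 detected miR-344 members enlarged. mmu-mir-344d-3 is at -3.65 and 14.8, in the upper part of the plot, and mmu-mir-344b is at -2.76 and -1.33, near the centre.

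Scores of lowly expressed precursors fall on discrete steps, often shared by several precursors. The place of a member on these steps within its own library does not depend on the scale between libraries. The lowest step held between 1 and 17 precursors, so that the same step number in 2 libraries need not be the same rank. In the 3 WT libraries mmu-mir-344d-3 was on step 2, 1 and 2 counted from the lowest score, together with 29, 15 and 25 precursors in all. In replicate 1 of WT + EtOH it was on step 2 and in replicate 1 of TLR4-KO on step 1. In TLR4-KO + EtOH it was on step 11 in replicate 1, step 7 in replicate 2 and step 2 in replicate 3. Replicates 1 and 2 thus stood above all other libraries by step, and replicate 3 was on the same step as replicates 1 and 3 of WT, although its score of 10.95 was higher than their 4.20 and 5.23.

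Percentiles among the precursors above 0 in the same library show the same. mmu-mir-344d-3 was at percentile 5.74, 2.88 and 5.19 in WT, 3.15 in replicate 1 of WT + EtOH and 2.67 in replicate 1 of TLR4-KO. In TLR4-KO + EtOH it was at 26.7, 20.6 and 5.51. The last of these lies between the WT libraries, so that by percentile the groups WT and TLR4-KO + EtOH overlapped. The percentile also depends on how many precursors were above 0 in a library. Counted from the highest score, mmu-mir-344d-3 was number 241, 246 and 235 in WT. In TLR4-KO + EtOH it was number 189, 189 and 214, without overlap, and nothing is read from this, since the member was chosen on these libraries.

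mmu-mir-344b was at percentile 31.9, 24.4 and 29.2 in WT. Its percentiles were 49.1 and 12.7 in replicates 1 and 3 of WT + EtOH, and 47.9 and 13.0 in the same replicates of TLR4-KO. In TLR4-KO + EtOH they were 17.7, 20.6 and 20.1, all below the WT percentiles. The share of all precursors without overlap by percentile was not computed, and nothing is read from this. Counted from the highest score, however, the groups overlapped, with mmu-mir-344b at number 180, 196 and 182 in WT and 212, 189 and 185 in TLR4-KO + EtOH. Its scores of 20.9 in replicate 3 of TLR4-KO and 21.7 in replicate 1 of WT are close to each other, but correspond to step 4 and step 14 of their libraries. In replicate 2 of TLR4-KO + EtOH both members had the same score of 18.1, and in replicate 1 mmu-mir-344d-3 (19.4) was above mmu-mir-344b (13.7), the only library in which this order was found.

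**Figure D4:**
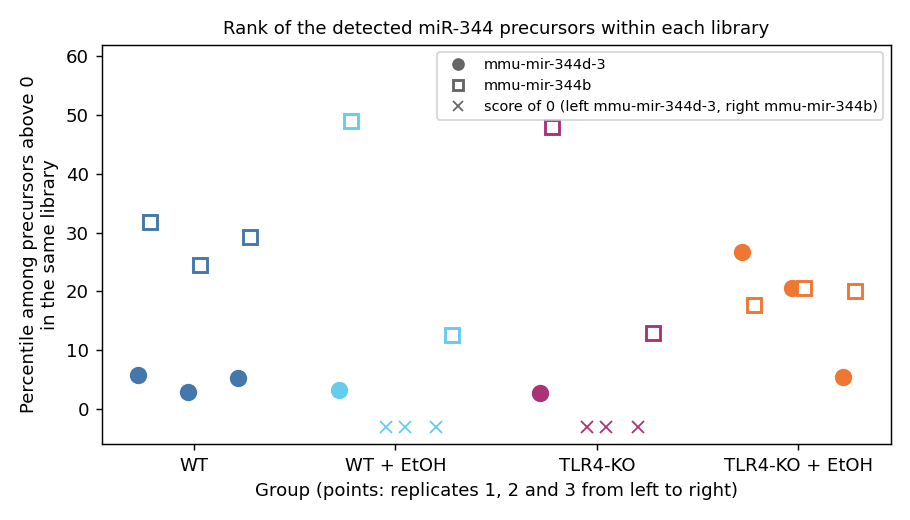
Percentile of mmu-mir-344d-3 (filled circles) and mmu-mir-344b (open squares) among the precursors above 0 in the same library, by group, replicates 1 to 3 from left to right, with crosses for a score of 0. Replicates 1 and 2 of TLR4-KO + EtOH have mmu-mir-344d-3 at 26.7 and 20.6, while replicate 3, at 5.51, is level with the WT libraries.

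Although both genes are in an intron of the same host transcript, the scores of mmu-mir-344b and mmu-mir-344d-3 over the 12 libraries had a Pearson r of 0.0744 and a Spearman rho of 0.163. The 12 points come from 4 groups and share the coverage of each library, and these values are a description. Of the 284 other precursors above 0 in at least 3 libraries, the 5 most like mmu-mir-344d-3 were mmu-mir-381 (r = 0.835), mmu-mir-3087 (0.810), mmu-mir-714 (0.728), mmu-mir-326 (0.726) and mmu-mir-411 (0.717). The pattern of mmu-mir-344d-3 itself was the reason for its choice, so that these precursors were likewise relatively high in some or all of the TLR4-KO + EtOH libraries. All but mmu-mir-411 also met the filter of 3 libraries only through the TLR4-KO + EtOH libraries. Nothing is therefore read from this list.

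mmu-mir-381, of the imprinted Dlk1-Dio3 cluster on chromosome 12, had scores of 15.5, 10.9 and 0 in TLR4-KO + EtOH, 6.87 in replicate 1 of WT and 0 in the other 8 libraries. mmu-mir-3087 was above 0 only in TLR4-KO + EtOH, at the lowest score of replicates 1, 2 and 3 (4.08, 5.26 and 7.29). mmu-mir-714 and mmu-mir-326 had the same scores as each other in that group, 4.54, 7.27 and 10.95, of which the last is also that of mmu-mir-344d-3. The fifth, mmu-mir-411 of the Dlk1-Dio3 cluster, was abundant throughout, with scores of 90.3, 83.7 and 79.9 in TLR4-KO + EtOH and 72.7 to 82.4 in the other libraries.

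The 5 precursors most like mmu-mir-344b were all copies of mmu-mir-467a from the rodent Sfmbt2 cluster on chromosome 2, numbers 10, 7, 4, 8 and 3, with r between 0.747 and 0.769. Copies of mir-467a have near-identical sequences and can share reads, so they are not separate observations. Their scores were 12.1 to 23.95 in replicate 1 of WT + EtOH and 17.2 to 23.5 in replicate 1 of TLR4-KO, the 2 libraries in which mmu-mir-344b was also highest, and 0 in replicates 2 and 3 of both groups.

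Other groups of miRNAs give a measure of these levels. Of the 4 miR-344 precursors 2 (50%) were above 0 in any library and 0 in all 12, against 324 (55.0%) and 190 of 589. All 17 neuron-enriched precursors were above 0, with a median of their mean scores of 56.7. In the Dlk1-Dio3 cluster, an imprinted group known for expression in brain, 38 of 45 (84.4%) were above 0 and the median was 35.5. In the Sfmbt2 cluster, likewise a rodent expansion, 19 of 48 (39.6%) were above 0, 0 of them in all 12 libraries, with a median of 4.48. Of the miRNAs with a number of 1000 or above, which were annotated later, 63 of 228 (27.6%) were above 0, with a median of 7.20. The mean of mmu-mir-344b was thus below the median of 26.7 for all 324 precursors. That of mmu-mir-344d-3 (5.76) was between the medians of the Sfmbt2 cluster and of the later annotated miRNAs. It includes the TLR4-KO + EtOH libraries, on which the member was chosen, with their mean of 16.2. The means of the other groups were 4.56 in WT, 1.40 in TLR4-KO and 0.907 in WT + EtOH.

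Few precursors of the whole table passed the limma test in the comparisons that do not use TLR4-KO + EtOH. These were 10 of 589 (1.7%) in WT + EtOH against WT and 15 of 589 (2.55%) in TLR4-KO against WT. None of the neuron-enriched, Dlk1-Dio3 or Sfmbt2 precursors passed in WT + EtOH against WT or in TLR4-KO against WT, as none of the miR-344 precursors did. Among the 228 later annotated miRNAs, 1 rose and 1 fell in WT + EtOH, and 2 were higher and 1 lower in TLR4-KO than in WT. With so few calls in the whole table, these counts are not read as a trait of any list.

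Markers of other cells were present beside the neuronal ones. Of the oligodendrocyte precursors (miR-219 and miR-338) 4 of 4 were above 0, with a mean score of 17.5 to 19.1 for WT, 12.4 to 18.0 for TLR4-KO, 16.7 to 22.3 for WT + EtOH and 16.2 to 20.9 for TLR4-KO + EtOH. Of 5 erythroid precursors (miR-451, miR-144 and miR-486) all were above 0, and their mean score was 57.4 to 61.2 for WT, 55.6 to 56.1 for WT + EtOH, 51.6 to 55.5 for TLR4-KO and 48.8 to 54.5 for TLR4-KO + EtOH. The mean of these 5 was thus highest in WT without overlap with the other groups, but they did not move together. In WT + EtOH against WT, mmu-mir-451a and mmu-mir-451b had the same difference of -14.6, and mmu-mir-486a had -0.383. By contrast, mmu-mir-486b (8.19) and mmu-mir-144 (1.20) were higher. The part of these markers in the miR-344 differences was not tested. Of the leukocyte markers (miR-142, miR-150 and miR-223) 3 of 4 were above 0 (26.3 to 32.4 over all libraries), of the vessel markers (miR-126, miR-143 and miR-145) 4 of 5 (47.7 to 52.3), and of those of choroid plexus and ciliated cells (miR-449, miR-34b and miR-34c) 2 of 4 (9.78 to 17.0). In bulk cortex, fewer cells of a type and less RNA per cell cannot be told apart.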

How the data were processed

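Small RNA from the cortex was sequenced in 12 libraries of pooled RNA. Per the labels, the authors used FastQC 0.11.6, cutadapt 1, Bowtie2 2.2.5 and TopHat with GRCm38. Per the study's methods, reads were counted, normalized by TMM and tested with a negative binomial model with 1 factor for the groups. The deposited table holds a normalized score that the authors computed per precursor, whose formula and miRBase release are not given in the sources used here. Low scores fall on steps often shared by several precursors, and 0 is kept at 0.

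No counts are given, so a linear model of the untransformed scores was fitted with limma 3.58.1 (lmFit, contrasts.fit, eBayes; R 4.3.3) over the 12 libraries, with a mean for each group, no covariate and Benjamini-Hochberg adjustment over 589 precursors (threshold 0.05, total degrees of freedom 8.31). Exact permutation tests used scipy 1.17.1 in Python 3.11.15 (numpy 2.4.6, pandas 2.3.3), and figures matplotlib 3.10.9. Detection means a score above 0 in at least 1 library. Sequences came from RefSeq (GRCm38.p6) and host transcripts from GENCODE, the same build as the labels give. All miR-344 precursors and the 5 precursors most like each detected one are named, with members of the lists where a count turns on them. The members and lists were chosen with earlier results of these data known. Replicates are numbered in the labels and are separate pools per the methods, and none of the 66 pairs of libraries held identical values. Replicate numbers were taken to pair 2 groups where all 3 correlations of deviations from the group means were over 0.1, over the 190 precursors above 0 in all libraries. That was so for TLR4-KO and TLR4-KO + EtOH (0.133, 0.101 and 0.153), but not for the other comparisons made with WT or WT + EtOH, and nothing else ties the numbers to a shared source. Alternatives were quantile normalization, centring on miR-181a and miR-181b, a filter, the 2 groups only, a replicate block, robust eBayes, a covariate, within-library ranks, other detection limits, each library left out, and, added after the data were seen, 0 set to the library's lowest score.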

Additional observations from a re-analysis of the deposited data

Results flagged for a closer look

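The difference of mmu-mir-344d-3 with ethanol was -3.65 in WT and 14.8 in TLR4-KO, 18.4 apart in score. It was noted because every WT + EtOH library was below every WT library and every TLR4-KO + EtOH library above every TLR4-KO library. The difference between the genotypes was not tested, since the member was selected on the TLR4-KO + EtOH libraries. With each 0 set to its library's lowest score, the difference was 2.86 in WT and 6.32 in TLR4-KO, of the same sign. The sign in WT follows from this setting, since the values set (8.17 and 11.3) lie above all its WT scores, and nothing is read from it.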

How the results depend on the processing

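No miR-344 precursor passed the threshold in WT + EtOH against WT or in TLR4-KO against WT under any setting (limma adjusted p of mmu-mir-344d-3 from 0.166 to 1 and from 0.380 to 1, of mmu-mir-344b from 0.907 to 1 and from 0.927 to 1). With each 0 set to the lowest score of its library, chosen after seeing the data, the mmu-mir-344d-3 difference was 2.86 in WT + EtOH against WT, 5.29 in TLR4-KO against WT, 6.32 in TLR4-KO + EtOH against TLR4-KO and 8.76 against WT + EtOH, and that of mmu-mir-344b in TLR4-KO against WT was 2.17. For mmu-mir-344d-3 the values set lie above all its WT scores, so that its signs against WT follow from the setting. With the number of precursors above 0 as a covariate, the mmu-mir-344b difference was 5.61 in WT + EtOH and 10.4 in TLR4-KO against WT. Leaving out 1 library gave -11.7 to 6.09 for mmu-mir-344b in WT + EtOH against WT and -10.0 to 7.85 in TLR4-KO against WT, above 0 without replicate 2 of WT + EtOH or of TLR4-KO, where it was at 0. For mmu-mir-344d-3 it gave -4.56 to -3.19, -4.56 to -2.45, 13.1 to 17.4 (TLR4-KO + EtOH against TLR4-KO) and 13.6 to 17.9 (against WT + EtOH), and for mmu-mir-344b -10.8 to 7.08 and -9.003 to 8.74 in the last 2 comparisons, where the covariate gave -6.81 and -2.03. Detected members numbered 2 in each group. In WT 1 remained at a score of at least 10. In WT + EtOH and in TLR4-KO there was 1 at 2 of 3 libraries, 0 at all 3 and 1 at a score of at least 10, and 1 to 2 with a library left out, the lower number without replicate 1 of either group. Among all precursors, calls in WT + EtOH against WT numbered 10, 7 with only these 2 groups, 21 with the filter, 59 with the covariate and 4 to 18 with a library left out. In TLR4-KO against WT they numbered 15 (9 higher, 6 lower), 21 after centring (10 higher, 11 lower), 31 with the filter, 63 with the covariate and 11 to 22 with a library left out. Centring moved the median of all precursors by -0.937 in TLR4-KO + EtOH against TLR4-KO and -1.19 against WT + EtOH. Of 18 pairs of libraries with the same number, 10 had deviations correlated over 0.1 (r -0.109 to 0.153), among them all 3 of TLR4-KO with TLR4-KO + EtOH. The replicate block cannot change a difference of group means, since every group holds each replicate number once, and bears only on the spread. With the block the calls numbered 13 in WT + EtOH and 24 in TLR4-KO against WT, and no member was called in either. The cause of these changes was not tested. Without counts, depth sets no stated limit, but the lowest score above 0 (1.25 to 14.1) limits what a library could show.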
